A study of Mus musculus with 6 samples.

Results

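Hox cluster genes were examined in the skull vault of newborn mice, taken as every array probe whose annotated symbol was Hoxa, Hoxb, Hoxc or Hoxd followed by a number, without opposite-strand genes. This gave 57 probes for 38 genes, out of 45281 probes on the array, of which 10378 carried no symbol. Total RNA of primary calvaria from FVB/N mice at postnatal day 3 was hybridised to Illumina bead arrays, with 3 arrays labelled miR34c overexpression (TG) and 3 labelled wild type (WT). All 6 samples share strain, age and tissue. The series title calls the TG mice a gain of function of this microRNA in the osteoblast. The labels do not name the promoter that drives it, the sex of the pups, or whether a sample is 1 pup or a pool. The p-values below therefore set the difference between groups against the spread among these samples alone. That spread is estimated partly from all probes tested. The control rows of the intensity table carry a header with other replicate numbers and another age than the sample labels; the probe columns were read by the sample labels, and which of the headers is right was not settled.

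Hox genes encode homeodomain transcription factors that give cells along the body axis their positional identity. They lie in clusters on 4 chromosomes, and within a cluster the genes at the low-numbered end are switched on earlier and farther forward in the embryo than those at the high-numbered end. The skull roof forms from cranial neural crest and head mesoderm. The crest in front of the hindbrain's Hox territory expresses no Hox gene, and forced Hox expression there disturbs the skull and face in mouse and chick embryos. Outside their own domains Hox clusters are held silent by Polycomb proteins, which act mainly at CpG-rich sequence. The occipital bone, neck muscle, the pharyngeal arches behind the jaw arch, hindbrain and blood progenitors are Hox-expressing neighbours.

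Because the low-numbered Hoxa2 and Hoxd4 and the mid-cluster Hoxd8 were among the genes detected in this RNA, while Hoxd9, directly beside Hoxd8, was detected on 1 array, their start regions are shown for comparison. Each run is the RefSeq window from 250 bases before to 50 bases after an annotated start, on the strand of the gene, in build GRCm38.p6, and the capitals mark CG dinucleotides. The windows are chr6:52164782-52165081 on the minus strand for Hoxa2, and chr2:74721728-74722027, chr2:74704365-74704664 and chr2:74697513-74697812 on the plus strand for Hoxd4, Hoxd8 and Hoxd9.
Hoxa2: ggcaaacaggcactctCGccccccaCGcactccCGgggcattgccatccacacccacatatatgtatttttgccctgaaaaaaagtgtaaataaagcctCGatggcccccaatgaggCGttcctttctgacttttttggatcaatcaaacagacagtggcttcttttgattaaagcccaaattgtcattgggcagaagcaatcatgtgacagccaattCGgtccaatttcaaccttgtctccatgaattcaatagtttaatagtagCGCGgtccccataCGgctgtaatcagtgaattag
Hoxd4: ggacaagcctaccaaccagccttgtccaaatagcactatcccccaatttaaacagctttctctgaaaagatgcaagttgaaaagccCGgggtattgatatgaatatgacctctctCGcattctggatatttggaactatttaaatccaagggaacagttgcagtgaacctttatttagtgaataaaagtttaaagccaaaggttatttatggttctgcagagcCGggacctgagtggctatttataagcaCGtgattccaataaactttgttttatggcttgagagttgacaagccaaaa
Hoxd8: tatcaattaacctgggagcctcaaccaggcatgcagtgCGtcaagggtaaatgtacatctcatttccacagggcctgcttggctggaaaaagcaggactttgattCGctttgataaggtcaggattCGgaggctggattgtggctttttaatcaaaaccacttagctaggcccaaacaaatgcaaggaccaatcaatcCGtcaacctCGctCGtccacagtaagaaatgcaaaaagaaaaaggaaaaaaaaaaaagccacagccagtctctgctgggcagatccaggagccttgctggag
Hoxd9: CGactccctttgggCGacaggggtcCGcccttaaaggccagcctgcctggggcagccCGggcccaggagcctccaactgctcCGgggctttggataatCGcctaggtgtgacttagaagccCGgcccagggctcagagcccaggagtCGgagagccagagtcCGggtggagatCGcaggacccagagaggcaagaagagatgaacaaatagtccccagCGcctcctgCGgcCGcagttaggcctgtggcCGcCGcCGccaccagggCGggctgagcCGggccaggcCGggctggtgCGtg
The windows of Hoxa2, Hoxd4 and Hoxd8 held 9, 4 and 6 CG dinucleotides, and that of Hoxd9 held 20. Among the 24 Hox windows in the table, which stand for 22 of the 38 genes, the 6 windows of genes detected on at least 3 arrays had a median of 7.5 CG dinucleotides and the other 18 a median of 17.5, against 7 over all 32851 windows of the table. The 6 windows stand for 5 genes, with Hoxd11 counted for 2 starts, and the detected Hoxb2, Hoxb3 and Hoxc10 had no window. The split was not clean. The detected Hoxa13 had 45, the highest of the Hox windows, the detected Hoxd11 had windows of 4 and 25, and the undetected Hoxa9 had 4. The letters TGATNNAT, a Pbx-Hox core searched on both strands, occurred in 4 of 24 Hox windows (16.7%), among them Hoxa2, and in 8.85% of all windows. The letters TTTATG, a Cdx core also searched on both strands, occurred in 5 Hox windows (20.8%), among them Hoxd4 with 2, and in 11.9% of all. A match is a description of the sequence and does not show binding, and a gene with several annotated starts may use another one here.

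Most Hox genes gave no signal above background in the newborn calvaria. A probe is called detected where its detection p, the share of negative control probes as bright on that array, is under 0.05. By this definition about 5% of probes without signal are called on each array, or 2.85 of 57. Of the 57 Hox probes, 37 (64.9%) were detected on no array, 11 on 1 or 2 arrays and 9 (15.8%) on at least 3 of the 6, against 43.6% of all probes on no array and 45.6% on at least 3. Olfactory and vomeronasal receptor probes, whose genes are not known as bone transcripts, gave a measured floor: 25 of 1490 (1.68%) were detected on at least 3 arrays and 86.4% on none. Hox probes were thus detected less often than the average probe and more often than the receptor probes, as a description with no test. At gene level, 8 of 38 Hox genes had a probe detected on at least 3 arrays, 9 reached 1 or 2 arrays and 21 reached none. In bulk tissue, a low signal from few cells and a low level in many cells cannot be told apart.

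The genes detected on at least 3 arrays were Hoxa2 and Hoxa13, Hoxb2 and Hoxb3, Hoxc10, and Hoxd4, Hoxd8 and Hoxd11. In Hoxa they lay near the ends of the cluster, and in Hoxb at the low-numbered end. Of paralogues 1 to 3, which pattern the hindbrain and upper neck, 4 of 15 probes (26.7%) for 3 of 7 genes were detected on at least 3 arrays. Of these 4 probes, 2 were for Hoxa2. Of paralogues 4 to 8, which act in the neck and chest, 2 of 16 probes (12.5%) for 2 of 15 genes were so detected. Of paralogues 9 to 13, which act in the lower trunk and limbs, 3 of 26 probes (11.5%) for 3 of 16 genes were. The count for paralogues 1 to 3 fell to 2 without TG replicate 3 or without WT replicate 2, and those of the other classes did not change on leaving out any single array. With detection p under 0.01, the 4 probes left were Hoxd4, Hoxd8, Hoxd11 and Hoxa13, and none of paralogues 1 to 3. By cluster, 3 of 12 Hoxd probes (25.0%), 3 of 19 Hoxa probes (15.8%), 2 of 15 Hoxb probes (13.3%) and 1 of 11 Hoxc probes (9.09%) were detected on at least 3 arrays. The Hoxb count was 1 without TG replicate 3, WT replicate 1 or WT replicate 2, and the Hoxa count was 2 without TG replicate 2, TG replicate 3 or WT replicate 2. Paralogue number 2 was the only one with all its probes so detected, 3 of 3, for Hoxa2 and Hoxb2, while numbers 1, 5, 6, 7, 9 and 12 had none.

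**Figure D1:**
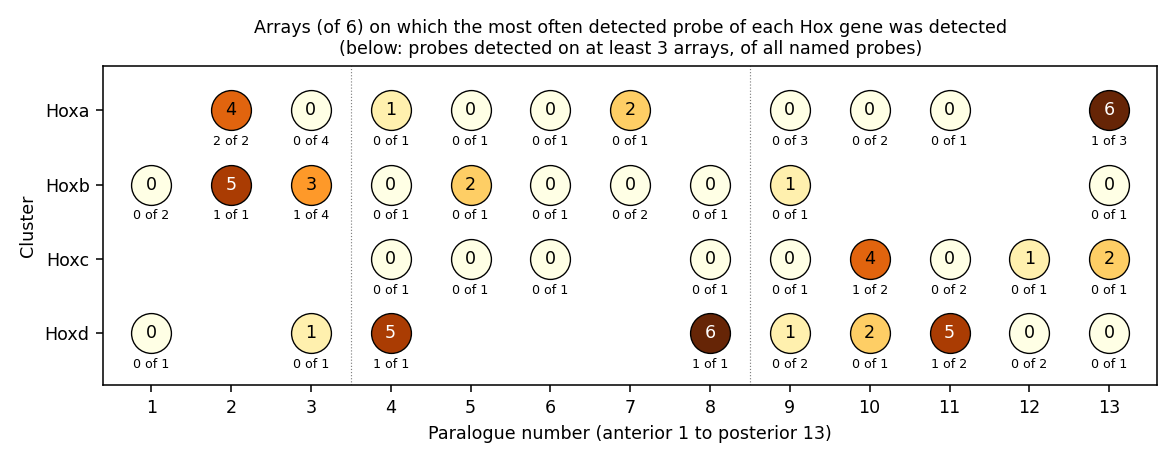
Each circle is a Hox gene placed by cluster (rows) and paralogue number (columns); the number and colour give the arrays, out of 6, on which its most often detected probe had a detection p under 0.05, and the line under it the probes detected on at least 3 arrays out of those named. Hoxd8 and Hoxa13 reached 6 arrays, Hoxb2, Hoxd4 and Hoxd11 5, and 21 genes none.

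The number of Hox probes detected was 5, 13 and 13 on TG replicates 1 to 3, against 9, 12 and 5 on WT replicates 1 to 3, so the groups overlapped. TG replicate 1 and WT replicate 3 were the low arrays. For paralogues 1 to 3 the counts were 1, 4 and 5 in TG and 3, 4 and 0 in WT, and for paralogues 9 to 13 they were 2, 6 and 4 in TG and 3, 5 and 4 in WT. The receptor probes did not follow this pattern, at 2.75% to 4.3% per array with the highest share on TG replicate 1. All probes were detected at 45.7%, 46.3% and 47.3% on TG replicates 1 to 3. On WT replicates 1 to 3 the share was 44.8%, 46.3% and 43.5%. The 3 arrays with the most Hox probes detected, TG replicates 2 and 3 and WT replicate 2, had the 3 highest shares. WT replicate 3 had the lowest share, while TG replicate 1 was above WT replicate 1. Intensity at the detection limit was 129.9 to 133.9 on TG arrays and 130.2 to 135.9 on WT arrays.

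**Figure D2:**
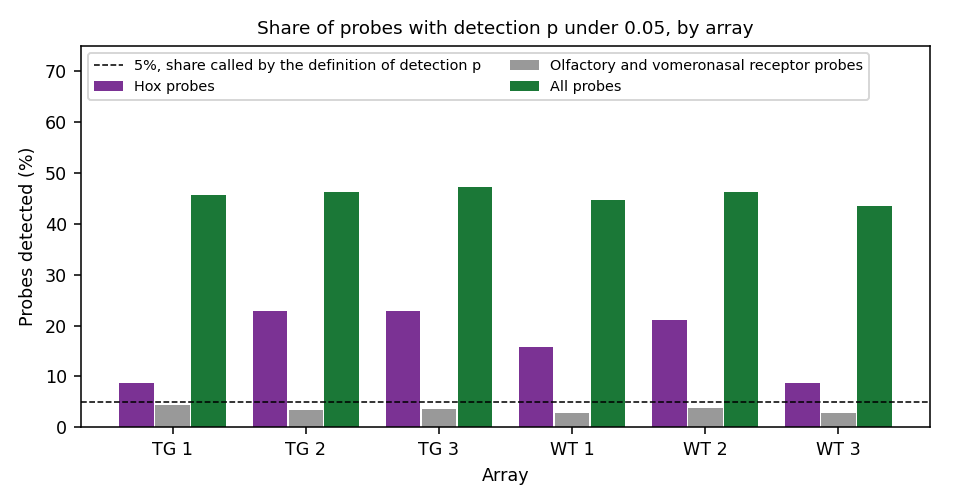
Percent of probes with a detection p under 0.05 (vertical axis) on each array for the 57 Hox probes, the 1490 receptor probes and all 45281 probes; the dashed line is 5%. Hox probes lie between 8.77% and 22.8%, above the receptor probes and below all probes on every array.

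Hoxa2, the selector gene of the second pharyngeal arch in mouse, was the 1 Hox gene whose several probes were all detected. The first probe had an intensity of 126.7, 158.9 and 137.4 on TG replicates 1 to 3, against 139.9, 141.2 and 119.3 on WT replicates 1 to 3. The second probe had 122.0, 187.4 and 140.5 in TG, against 132.9, 161.9 and 122.2 in WT. Both probes were highest on TG replicate 2 and at background on TG replicate 1 and WT replicate 3, and the groups overlapped on each. On the scale used for testing, normalised log2 intensity, the second probe averaged 5.37 ± 0.98 in TG and 5.06 ± 0.50 in WT (SD, n = 3). Its log2 fold change, TG minus WT, was 0.31 ± 0.46 (SE; limma, adjusted p = 0.9997). The first probe had 0.26 ± 0.29. Without TG replicate 2 both values turned, to -0.24 on the second probe and -0.09 on the first. Hoxb2, its paralogue, which acts in the hindbrain where the facial nerve arises, had an intensity of 138.3, 144.2 and 149.1 in TG, against 141.6, 144.0 and 125.0 in WT. It was detected on all TG arrays and on WT replicates 1 and 2, with a log2 fold change of 0.26 ± 0.15.

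Hoxb3 and Hoxd4, genes of the hindbrain and upper neck vertebrae, were near the limit of detection. Of 4 Hoxb3 probes, 1 was detected on 3 arrays, at 129.5, 125.2 and 135.0 in TG, against 137.3, 138.3 and 115.8 in WT. A further Hoxb3 probe was detected on 1 array and the other two on none, so the gene rests on 1 probe just above background. The single Hoxd4 probe had 142.5, 140.6 and 143.6 in TG, against 155.3, 154.7 and 130.0 in WT. It was detected on every array except WT replicate 3, and the TG values lay inside the WT range. Its log2 fold change was -0.11 ± 0.17 and that of Hoxb3 -0.03 ± 0.15, both with an adjusted p of 0.9997 in limma.

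Hoxd8, a mid-cluster gene that acts in the trunk, reached the highest level over the detection limit of any Hox probe on every array except TG replicate 1. Its single probe had an intensity of 142.5, 194.8 and 193.5 on TG replicates 1 to 3, against 177.7, 251.1 and 154.1 on WT replicates 1 to 3. That is 1.07 to 1.50 times the array's detection limit in TG and 1.18 to 1.85 times in WT, and the probe was detected on all 6 arrays. The groups overlapped, with WT replicate 2 the highest array and TG replicate 1 the lowest. The means were 6.07 ± 0.69 in TG and 6.34 ± 0.58 in WT, a log2 fold change of -0.27 ± 0.38 (95% interval -1.16 to 0.61). The value turned to 0.12 without TG replicate 1 and to 0.05 without WT replicate 2. On TG replicate 1 it was at 1.07 times the limit, as was Hoxd4, below Hoxa13 at 1.13 and Hoxd11 at 1.12 times. Of the genes next to it in the cluster, Hoxd4 was detected on 5 arrays at up to 1.15 times the limit, the probes of Hoxd9 on 1 array and on none, and Hoxd10 on TG replicates 2 and 3 alone.

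The high-numbered Hoxc10, Hoxd11 and Hoxa13 were detected, but in each case on 1 probe while the others for the same gene were not. Hoxc10, a gene of the lumbar region and hindlimb, had a probe at 132.6, 133.6 and 138.9 in TG, against 136.3, 126.2 and 134.6 in WT, with a log2 fold change of 0.05 ± 0.16. Its other probe was detected on no array. Hoxd11, which with Hoxa11 shapes the forearm bones, had 148.4, 141.8 and 147.3 in TG, against 129.4, 139.7 and 137.9 in WT. The intensities did not overlap before normalisation, but the normalised log2 values did, at 5.50, 5.34 and 5.27 in TG and 4.75, 5.00 and 5.31 in WT. The log2 fold change of Hoxd11 was 0.35 ± 0.16 (limma, unadjusted p = 0.0656, adjusted p = 0.9997), and its other probe was detected on no array. Hoxa13, a gene of digits and the genital tract, had 150.5, 133.1 and 147.4 in TG, against 157.7, 160.4 and 150.6 in WT. Every TG value was below every WT value on the normalised scale, at 5.28 ± 0.28 in TG and 5.69 ± 0.08 in WT, with a log2 fold change of -0.41 ± 0.16 (95% interval -0.77 to -0.04; limma, unadjusted p = 0.0326, adjusted p = 0.9997). The value was -0.08 with the authors' normalised values, on a scale where the other tested Hox probes also had smaller log2 fold changes. The second Hoxa13 probe was detected on TG replicate 2 and WT replicate 2 and the third on no array.

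Probes of the same gene often disagreed in detection, for Hox genes as over all genes. Of 13 Hox genes with several probes, 5 had at least 1 probe detected on 3 or more arrays, and in 1 of these 5, Hoxa2, all probes were. Over all genes with several probes and at least 1 so detected, all probes were detected for 2738 of 6749 (40.57%). That share is not matched to the Hox genes for probes per gene or for signal. The 3 single-probe genes detected, Hoxb2, Hoxd4 and Hoxd8, have no second probe to compare. Probe sequences were not used here, so the part of other transcripts in these signals was not tested.

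**Figure D3:**
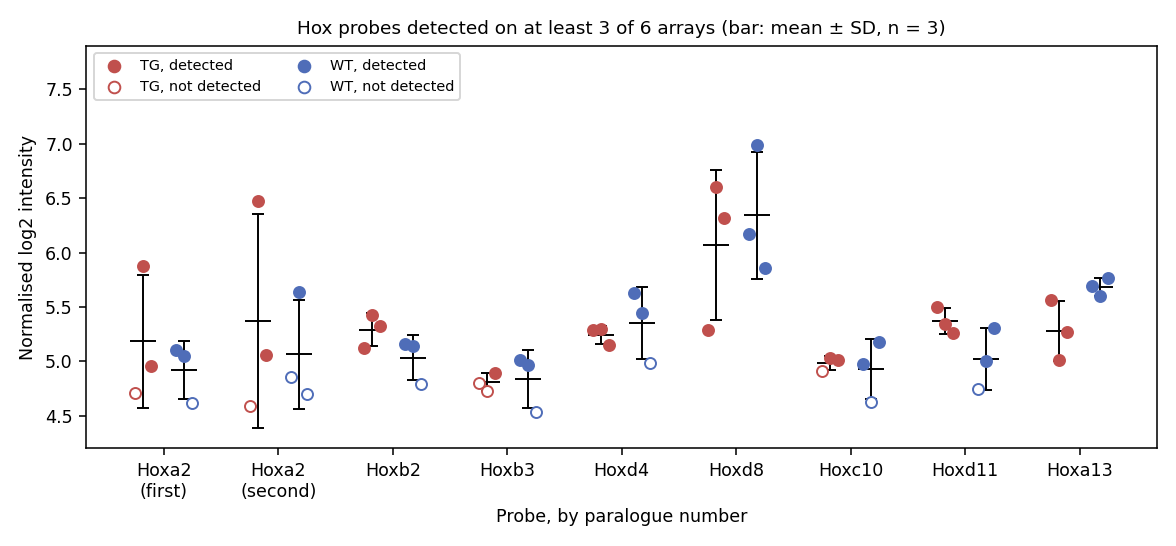
Normalised log2 intensity (vertical axis) of the 9 Hox probes detected on at least 3 of 6 arrays, ordered by paralogue number, with TG left of WT; filled points are detected arrays, open points are not, and bars are means ± SD (n = 3). Hoxd8 and the second Hoxa2 probe spread most within both groups, and Hoxa13 is the probe whose TG and WT points do not overlap.

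A further 9 Hox genes were detected on 1 or 2 arrays and no more. Hoxd3, Hoxa4, Hoxb9, Hoxd9 and Hoxc12 were detected on 1 array each. Hoxb5 was detected on WT replicates 1 and 2, Hoxa7 and Hoxd10 on TG replicates 2 and 3, and Hoxc13 on TG replicate 2 and WT replicate 3. Intensities of the 11 probes detected on 1 or 2 arrays were at most 1.05 times the detection limit. Hoxb5 had 124.6, 115.4 and 118.3 in TG, against 138.4, 136.5 and 124.2 in WT. Its bound on the normalised scale was 1.01-fold, lower in TG. Hoxa7 had 130.3, 136.5 and 137.4 in TG, against 125.7, 132.0 and 128.1 in WT. Its bound was 1.02-fold, higher in TG, while its groups overlapped on the normalised scale. Each bound sets the mean of the brighter group against the dimmer group's values or the lowest detected signal, whichever is higher on an array. The direction of a bound follows from the rule that picked the probe. The brighter mean takes in that group's undetected array, so a bound is no strict minimum. The 21 genes with no detected probe were Hoxb1 and Hoxd1; Hoxa3; Hoxb4 and Hoxc4; Hoxa5 and Hoxc5; Hoxa6, Hoxb6 and Hoxc6; Hoxb7, Hoxb8 and Hoxc8; Hoxa9 and Hoxc9; Hoxa10, Hoxa11 and Hoxc11; and Hoxd12, Hoxb13 and Hoxd13. All 4 Hoxa3 probes and all 3 Hoxa9 probes were in this group, and intensities of the 37 undetected probes were 101.0 to 134.8.

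No Hox probe passed the test of TG against WT over all probes. With limma, 0 of 20632 probes tested (0%) and 0 of the 9 Hox probes among them had an adjusted p under 0.05; 710 probes (3.44%) had an unadjusted p under 0.05, of which Hoxa13 was the 1 Hox probe. Fitted folds are given for the tested probes alone, since 37 of the 57 were detected on no array. On the normalised scale the groups did not overlap for 4 of the 57 Hox probes (7.02%), against 8.89% of all probes, a count that takes in values at background. Hoxd3 was the 1 higher in TG, as were 4.34% of all probes, and Hoxb5, Hoxa13 and Hoxd13 were lower in TG, as were 4.56% of all probes. Hoxd13, named after its values were seen, was detected on no array, and Hoxd3 was detected on TG replicate 2 alone.

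**Figure D4:**
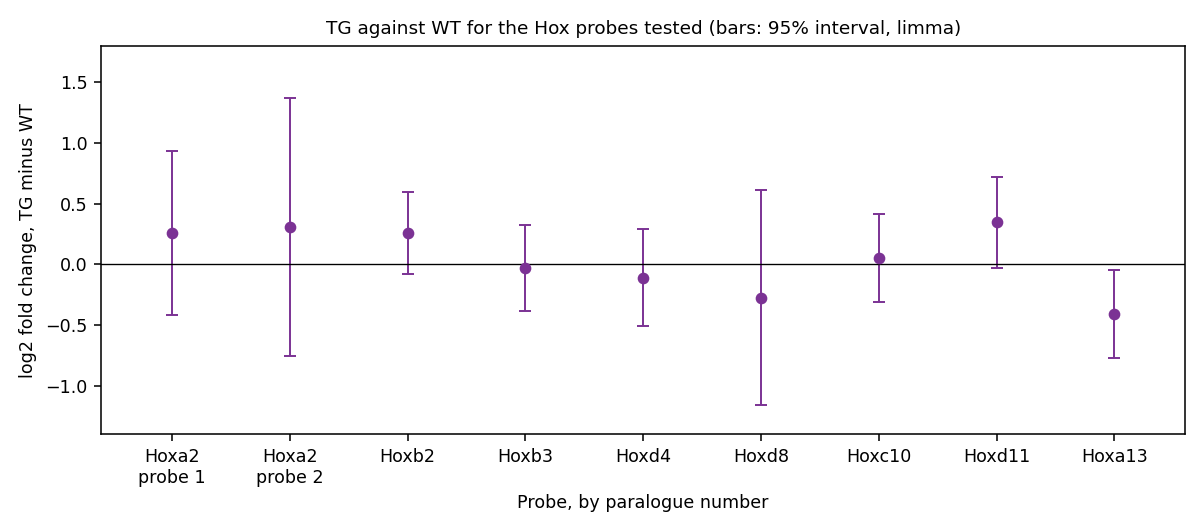
Log2 fold change, TG minus WT, with its 95% interval from limma (vertical axis) for the 9 Hox probes detected on at least 3 arrays, ordered by paralogue number. The values run from -0.41 for Hoxa13 to 0.35 for Hoxd11, and the widest intervals belong to the second Hoxa2 probe and Hoxd8, the probes that spread most between arrays of a group.

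Markers of tissues next to the bone also varied from array to array. Of 12 skeletal muscle markers with a named probe, 12 were tested, and their mean relative to all arrays was -1.26, 0.62 and 0.16 log2 units on TG replicates 1 to 3, against -0.32, 0.94 and -0.14 on WT replicates 1 to 3. The 3 arrays with the most muscle signal, WT replicate 2, TG replicate 2 and TG replicate 3, were also the 3 highest for Hoxd8, and TG replicate 1 was the lowest for both. The brightest muscle genes were Myh8, Acta1 and Myl1. Of 11 cartilage markers with a probe, 10 were tested, with a mean of -0.31, 0.99 and 0.18 in TG, against 0.06, -0.10 and -0.81 in WT. The brightest of them were Col2a1, Matn1 and Col9a2, and Col2a1 had 14.87, 15.36 and 15.08 in TG, against 15.18, 14.81 and 14.53 in WT, highest on TG replicate 2 and lowest on WT replicate 3. Col10a1, a marker of hypertrophic chondrocytes named after its values were seen, had 4.74, 11.35 and 8.86 in TG, against 4.72, 7.50 and 4.90 in WT. The 3 arrays on which Col10a1 was detected were the 3 highest for the second Hoxa2 probe. They are the same 3 arrays that were highest for muscle and Hoxd8, and for the share of all probes detected. These pairings therefore cannot be told apart. Col2a1 was lower on WT replicate 2, 1 of these 3, than on WT replicate 1. The 7 neuron and glia markers tested, of 12 with a probe, had -0.14, -0.38 and 0.70 in TG, against -0.02, 0.69 and -0.85 in WT, led in level by Map2, Stmn2 and Elavl3. Stmn2 had 7.71, 7.03 and 9.20 in TG, against 7.73, 8.75 and 5.80 in WT, highest on TG replicate 3, while Snap25, Nefl and Tubb3 of the same list were detected on no array.

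The summed normalised signal of the muscle list was 37870 to 114600 in TG and 65750 to 137300 in WT, that of the cartilage list 72850 to 109900 in TG and 49460 to 97470 in WT, and that of the neuron and glia list 603.4 to 1628 in TG and 399.5 to 1377 in WT. Their part in the Hox signal was not tested. Of the bone markers, 9 of 9 were detected on all 6 arrays, the brightest being Col1a1, Ibsp and Bglap2. TG replicates 2 and 3 also differed from the other arrays in Xist, the RNA of the inactive X chromosome. Its log2 values were 4.52, 10.82 and 11.64 on TG replicates 1 to 3 and 4.47 to 4.62 on the WT arrays. The mean log2 signal of Y-linked probes was 6.266, 4.917 and 4.784 on TG replicates 1 to 3 and 6.368 to 6.715 on the WT arrays. TG replicates 2 and 3 thus had a female profile and the other arrays a male one. Sex and group are partly confounded, and their parts in the values of TG against WT cannot be told apart. When the mean Y-linked signal of each array entered the model, the Hoxa2 probes had log2 fold changes of -0.21 and -0.62. Hoxd8 then had -1.25 (limma, unadjusted p = 0.0226, adjusted p = 0.8568), against -0.27 without the covariate. Hoxa13 had -0.08 (limma, unadjusted p = 0.7147, adjusted p = 0.9803), against -0.41 without the covariate, and no Hox probe passed. Of the TG arrays, only TG replicate 1 had Y-linked signal close to that of the WT arrays. The values from this model therefore rest mainly on that array.

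**Figure D5:**
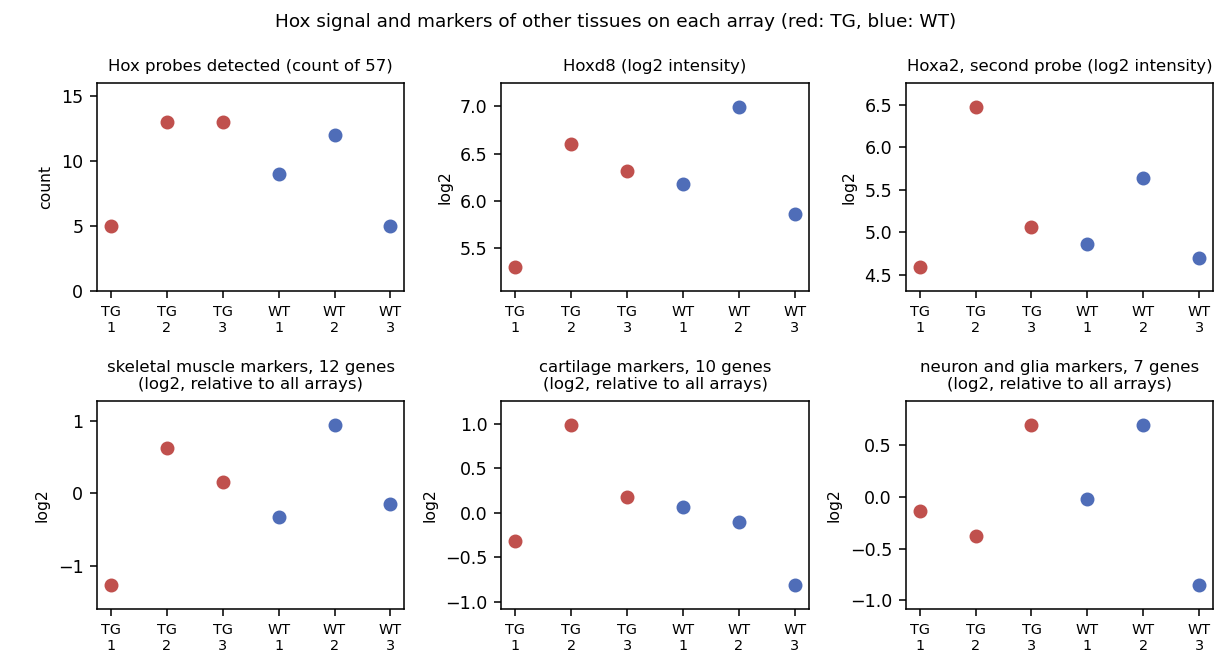
The panels show, for TG replicates 1 to 3 and then WT replicates 1 to 3, the count of Hox probes detected, the normalised log2 intensity of Hoxd8 and of the second Hoxa2 probe, and the mean of the muscle, cartilage and neuron and glia markers in log2 units relative to all arrays. TG replicate 1 is lowest for Hoxd8 and for muscle, and TG replicate 2 is highest for Hoxa2 and for cartilage.

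The partners and regulators of Hox proteins were readily measured in the same RNA. Of the TALE cofactors, homeodomain proteins that bind DNA together with Hox proteins, 7 of 8 genes with a probe were tested, with 6 positive and 1 negative log2 fold changes and a median of 0.13. Meis2 had 0.31 ± 0.20, Meis1 0.20 ± 0.15 and Pbx2 0.02 ± 0.15, and none of the 7 passed. Of the Polycomb group, which keeps Hox genes silent, 13 of 15 were tested, 6 positive and 7 negative with a median of -0.05; Suz12 had 0.15 ± 0.15, Phc2 -0.05 ± 0.12 and Phc1 0.00 ± 0.12. Of the trithorax group and H3K27 demethylases, which keep them active, 9 of 9 were tested, 7 positive and 2 negative with a median of 0.06; Kmt2a, encoding MLL1, had -0.01 ± 0.11, Dpy30 0.05 ± 0.12 and Kdm6b 0.06 ± 0.16. In this set Kdm6a, named after its values were seen and an X-linked gene that escapes X inactivation, had 8.63, 9.42 and 9.53 in TG, against 8.82, 8.45 and 8.71 in WT, high on the arrays with Xist signal. Of the Cdx and retinoid regulators 9 of 13 were tested, 4 positive and 5 negative with a median of -0.03; Rxrb had -0.03 ± 0.12, Rarg -0.12 ± 0.13 and Rarb 0.28 ± 0.30. The caudal genes Cdx1, Cdx2 and Cdx4 and the ParaHox genes Gsx1, Gsx2 and Pdx1 did not reach 3 arrays. None of these genes passed the test, and the median over all probes tested was 0.00.

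Homeobox genes of the head outside the clusters were detected more widely than Hox genes. Of 22 with a probe, 12 were detected on at least 3 arrays, against 8 of 38 Hox genes. Over the whole array, 45.6% of probes were so detected. That is a share of probes, while a gene counts here if any of its probes was detected, so they are not matched. Msx2 of the head list, with 1 probe, was detected on no array. Of the 12 tested, 6 had positive and 6 negative log2 fold changes, with a median of -0.02 and none past the threshold. Alx4, a skull vault gene, had 10.94, 10.69 and 10.89 in TG, against 11.20, 10.99 and 11.31 in WT (log2 fold change -0.33 ± 0.13; limma, unadjusted p = 0.0408, adjusted p = 0.9997). Dlx3 had -0.11 ± 0.21 and En1 -0.22 ± 0.15. Of 15 transcription factors of somites and limbs, 7 were tested, 3 positive and 4 negative with a median of -0.10, led in level by Meox2 at -0.10 ± 0.24, Foxc1 at -0.28 ± 0.17 and Meox1 at -0.17 ± 0.16. Tbx5, Pax9, Pax3 and Tcf15 did not reach 3 arrays.

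The genes that flank the Hox clusters were examined on the same chromosomes. Of the nearest 2 protein-coding genes on each side of each cluster, 14 of 16 had a named probe. Of these 14 genes, 9 had a probe detected on at least 3 arrays. Over the whole array 45.6% of probes were so detected, counted by probe and not by gene. Skap2 and Snx10, beyond the low-numbered end of the Hoxa cluster on chromosome 6, had log2 values of 8.61 to 8.98 and 9.78 to 10.52 in TG, against 8.89 to 9.14 and 9.96 to 10.62 in WT. Hibadh, beyond the Hoxa13 end, had 11.30 to 11.54 in TG and 11.28 to 11.54 in WT. Evx1 and Evx2, the homeobox genes directly beside Hoxa13 and Hoxd13, were detected on no array, as were Ttll6, Skap1 and Lnpk. None of the 9 flanking genes tested passed the threshold.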

How the data were processed

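Labelled RNA of 3 TG and 3 WT calvarial samples was measured on 6 arrays. Per the file headers, the authors deposited for each array a linear intensity, not background-subtracted, with its detection p-value. They also deposited normalised log2 values; lumi is named in the submitters' processing notes, without a version, and how they were background-corrected and normalised is not given in the sources used. Of 974 unnamed control rows, the last 936 served as negative controls: the deposited detection p-values were within 0.00695 of values computed from these rows. Symbols came from the platform annotation, where 34885 probes had 1 symbol and 18 several; all 57 Hox probes matched RefSeq by Entrez identifier.

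Intensities were corrected with limma 3.58.1 in R 4.3.3 (normal-exponential model with negative controls, offset 16) and quantile-normalised as log2 values. The test, two-sided with lmFit and eBayes, took the 20632 probes with a detection p under 0.05 on at least 3 of 6 arrays, with Benjamini-Hochberg adjustment over all of them and a threshold of 0.05. Of probes not tested, those undetected on every array of 1 group and detected on at least 2 of the other got a bound where it exceeded 1, and the rest no fold. Detection was counted per array, paralogue class and cluster, with no test. Other genes are given by their brightest tested probe. The number of arrays limits the precision. Arrays of a group correlated at r of 0.982 to 0.989, and at most 0.462% of intensities were identical on any pair of arrays. Median intensity was 125.1 to 132.6. Replicate numbers were not taken to pair the samples. Deviations from the group means correlated at 0.26, 0.15 and -0.17 for numbers 1 to 3, and at -0.37 to 0.29 between unlike numbers. With 3 samples in a group these values cannot settle whether the samples were paired.

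Named genes were every Hox gene detected on at least 3 arrays, counts for those detected on 1 or 2, up to 3 members per list with the highest mean, and the flanking genes; undetected members of some lists are also named, and Col10a1, Kdm6a and Hoxd13 were named after their values were seen. Lists of bone, muscle, cartilage, neuron and glia, marrow, erythroid, blood progenitor, endothelium, epidermis and meninges markers were made for the tissues the sample could hold. The members and lists were chosen with earlier results of these data known. The pipeline was tested on simulated data. Alternatives changed the background step, scaling, filter, offset, variance model, block, covariate and arrays.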

Additional observations from a re-analysis of the deposited data

How the results depend on the processing

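The count of Hox probes with an adjusted p under 0.05 was 0 in all 15 alternatives, and over all probes it was 0 to 2 on leaving out 1 array and 0 in the others; the 2 calls, without TG replicate 1, were Xist and Kdm5d. The replicate block gave 0 Hox probes, with Hoxa13 at -0.41 and a smallest adjusted p of 0.9996 (limma), and changed no other call. Whether the replicate numbers pair the samples was not settled. Of 130 refitted log2 fold changes of the 9 Hox probes tested, 115 kept their direction and 15 turned, and the smallest adjusted p was 0.8568. The Y-linked covariate turned Hoxa2 (-0.209 and -0.617), Hoxd4 (0.017) and Hoxc10 (-0.008), in a fit that rests mainly on TG replicate 1. Hoxb3 turned to 0.001 without background correction and to 0 with the authors' values. On leaving out 1 array the range was -0.088 to 0.495 and -0.242 to 0.698 for the Hoxa2 probes, -0.186 to 0.061 for Hoxb3, -0.299 to 0.027 for Hoxd4, -0.541 to 0.116 for Hoxd8 and -0.095 to 0.183 for Hoxc10; the cause was not tested. Hoxb2, Hoxd11 and Hoxa13 kept their direction in all alternatives that gave a value, but Hoxa13 shrank to -0.08 with the Y-linked covariate (limma, unadjusted p = 0.7147). With the authors' values Hoxa13 had -0.083 (limma, unadjusted p = 0.1217), on a scale where the folds of all tested Hox probes were smaller in size. Hoxd11 had 0.068 and Hoxd8 -0.076 there, so the value of Hoxa13 is not comparable in size with the others. Hox probes detected numbered 9, and 4, for 4 genes, at a detection p under 0.01, 2, for 2 genes, if all 6 arrays were required, and 20, for 17 genes, if 1 array sufficed; these follow from the stricter or looser rule. Leaving out 1 array gave 7 to 9 probes for 7 to 8 genes. The stricter filter held no value for Hoxa2, Hoxb2, Hoxb3 and Hoxc10, which it leaves out. Signal close to background limits the Hox values, those of Hoxd8 on TG replicate 1 included.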

Other observations

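The opposite-strand gene Hoxd3os1, kept out of the Hox probes by their definition, has a pair of named probes. The first had an intensity of 114.1, 119.4 and 122.8 on TG replicates 1 to 3, against 119.2, 120.1 and 114.9 on WT replicates 1 to 3, and the second had 115.1, 106.5 and 128.4 in TG, against 110.3, 118.3 and 108.3 in WT. Neither probe of Hoxd3os1 was detected on any array. Marrow myeloid markers, 9 of 9 tested, had list means of -1.06, 0.21 and 0.02 log2 units relative to all arrays in TG, against 0.59, -0.06 and 0.29 in WT, and the 5 blood progenitor markers tested of 8 had -0.18, -0.09 and 0.24 in TG, against -0.16, 0.09 and 0.09 in WT. Endothelial markers, 5 of 6 tested, had -0.09 to 0.14 in TG and -0.06 to 0.06 in WT. The 4 meningeal markers tested of 5 had -0.41 to -0.10 in TG and -0.27 to 0.94 in WT, and the 2 erythroid markers tested of 5 had -0.55 to -0.40 in TG and -0.69 to 1.18 in WT. Of 6 epidermis markers with a probe 1 was tested, and Krt5, Krt14 and Krt15 did not reach 3 arrays.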
